A study of Mus musculus with 11 samples.

Results

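The genes described here are 9 genes of retinoic acid synthesis and response: Aldh1a2, Aldh1a1, Aldh1a3, Rara, Rarb, Rarg, Crabp2, Cyp26b1 and Dhrs3. They were taken by their Ensembl identifiers from a table of normalized read counts for 22104 genes, and each of the 9 matched 1 identifier. The set was put together because Aldh1a2 was lower in knockout cells. The genotype differences of its members are therefore given as descriptions, with no p, and counts of members called in that contrast stand only beside the share of all genes. The effects of hypoxia and the difference between them are tested. RNA was sequenced from mouse primary myoblasts, the dividing precursors of muscle fibres, which had been grown from tibialis anterior muscle of C57BL/6 mice about 8 weeks old. The culture medium of all groups was Ham's F-10, to which 20% FBS (fetal bovine serum) and bFGF at 2.5 ng/ml had been added. The 11 libraries fell into 4 groups: Bmal1-/- (KO) cells after 6 h at 1% oxygen (KO hypoxia, 3 libraries), wild-type (WT) cells after 6 h at 1% oxygen (WT hypoxia, 3 libraries), KO cells after 6 h at 21% oxygen (KO normoxia, 3 libraries) and WT cells after 6 h at 21% oxygen (WT normoxia, 2 libraries). Bmal1, whose gene symbol is Arntl, is a transcription factor of the circadian clock. The labels describe the mice only as Bmal1-/-, so no promoter, Cre line or deleted exon is known here. Nor do they say whether the libraries of a group came from different mice or cultures, so the spread behind each p-value may be technical.

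Retinoic acid is a signalling molecule made from vitamin A (retinol) in 2 oxidation steps. Retinol is first oxidised to retinaldehyde, a step that Dhrs3 reverses, and the Aldh1a enzymes then oxidise retinaldehyde irreversibly to retinoic acid. Crabp2 carries retinoic acid to the nucleus, where the receptors Rara, Rarb and Rarg bind DNA together with RXR partners and change transcription, and Cyp26 enzymes break retinoic acid down. Rarb, Cyp26 genes, Crabp2 and Dhrs3 are widely known as genes that retinoic acid itself induces, and retinoic acid is known to act on muscle progenitor cells.

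The promoters of Rarb, Aldh1a2 and Rara are shown as examples of the element known to bind retinoic acid receptors, the core known to bind hypoxia-inducible factors and the E-box of the clock. Each stretch is the 250 bases before an annotated transcription start (RefSeq, GRCm38.p6), read 5′ to 3′ on the strand of the gene. Capitals in Rarb (chr14:16575477-16575726, minus strand) mark a CACGC, the reverse complement of the core GCGTG, and a DR5 element, the paired half-sites spaced by 5 bases to which retinoic acid receptors are known to bind. Capitals in Aldh1a2 (chr9:71215539-71215788, plus strand) mark 2 cores of the element bound by hypoxia-inducible factors, ACGTG or GCGTG on either strand, the second of which reads CACGT on the strand shown. Capitals in the second of 4 annotated starts of Rara (chr11:98937468-98937717, plus strand) mark the E-box CACGTG, the element to which CLOCK and BMAL1 are known to bind, and ACGTG lies inside it.
Rarb: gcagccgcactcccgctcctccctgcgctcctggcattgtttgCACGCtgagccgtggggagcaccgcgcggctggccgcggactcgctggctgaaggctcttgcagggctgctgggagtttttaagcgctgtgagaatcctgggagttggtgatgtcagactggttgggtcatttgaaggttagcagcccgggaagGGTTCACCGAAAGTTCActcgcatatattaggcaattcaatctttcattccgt
Aldh1a2: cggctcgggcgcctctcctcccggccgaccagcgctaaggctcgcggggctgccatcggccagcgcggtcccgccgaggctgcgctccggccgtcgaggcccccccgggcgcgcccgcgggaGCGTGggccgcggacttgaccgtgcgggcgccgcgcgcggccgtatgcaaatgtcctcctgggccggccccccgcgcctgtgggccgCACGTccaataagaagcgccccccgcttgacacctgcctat
Rara: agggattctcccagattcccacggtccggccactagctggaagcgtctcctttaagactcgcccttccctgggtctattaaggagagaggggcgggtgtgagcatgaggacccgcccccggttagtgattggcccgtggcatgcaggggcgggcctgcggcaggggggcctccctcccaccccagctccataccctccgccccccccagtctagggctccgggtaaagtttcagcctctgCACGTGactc
The search covered 250 bases before and 50 bases after each start, on both strands, in all 32851 mouse promoters of the RefSeq table, of which 7 of the 9 members had at least 1 (Aldh1a3 and Crabp2 had no entry). The DR5 element of Rarb lay from -53 to -37 relative to the start, and 0.0974% of all promoters held such an element. The E-box of Rara lay from -10 to -5 of its start, and 7.15% of promoters held an E-box. The 2 cores of Aldh1a2 lay from -128 to -124 and from -41 to -37, and 43.8% of promoters held at least 1 such core, as did other windows of the members, with 4 cores in that of the second start of Rarg. No E-box was in the window of Aldh1a2, and no match to any of the motifs searched was in those of Aldh1a1, Cyp26b1 and Dhrs3. Another direct repeat, DR2, was found in 0.268% of promoters and in 0 of the members' windows. A match describes the letters of a window and says nothing about binding in these cells.

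Aldh1a2 (ENSMUSG00000013584, chromosome 9, 71215789 to 71296243 in GRCm38, protein-coding) encodes a retinaldehyde dehydrogenase and was the gene the set was chosen for. Its normalized read count was 133, 123 and 129 in KO hypoxia, 753, 759 and 714 in WT hypoxia, 146, 142 and 164 in KO normoxia, and 730 and 746 in WT normoxia. Every KO library was far below every WT library at both oxygen levels, with no value between 164 and 714. On the scale of log2(normalized count + 1), used for every log2 value here, the difference of KO from WT was -2.52 in hypoxia (SE 0.08, 5.75-fold lower) and -2.28 in normoxia (SE 0.09, 4.87-fold lower). Among all 14729 genes tested, 12 genes (0.0815%) were at least 4-fold lower in KO cells in both genotype comparisons.

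Aldh1a3 (ENSMUSG00000015134, chromosome 7, 66390890 to 66427517), the second retinaldehyde dehydrogenase at a clear level, had 242, 223 and 236 normalized counts in KO hypoxia, 602, 503 and 595 in WT hypoxia, 222, 195 and 213 in KO normoxia, and 455 and 546 in WT normoxia. All 6 KO libraries lay below all 5 WT libraries. The log2 difference of KO from WT was -1.27 in hypoxia (SE 0.10, 2.42-fold lower) and -1.25 in normoxia (SE 0.11, 2.37-fold lower). Aldh1a1 (ENSMUSG00000053279, chromosome 19, 20492715 to 20643465), the enzyme of this family known from liver and from many stem cells, was near the detection limit. It had 1.94, 1.82 and 2.05 normalized counts in KO hypoxia, 8.58, 10.5 and 7.0 in WT hypoxia, 2.48, 3.75 and 1.09 in KO normoxia, and 5.35 and 5.71 in WT normoxia. These values stood for 1 to 3 reads in a KO library and 5 to 15 reads in a WT library, and the KO libraries were the lower ones here too. Testing required a normalized count of at least 10 in at least 2 libraries. Aldh1a1 reached that level in 1 library (10.5) and was the only member left untested.

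Dividing each count by the length of the gene's exons allows the 3 enzymes to be compared with each other. Per kb of exon, the normalized counts of Aldh1a1, Aldh1a2 and Aldh1a3 summed to 103 to 112 in KO hypoxia, 446 to 465 in WT hypoxia, 106 to 119 in KO normoxia and 422 to 449 in WT normoxia. Within that sum, on the same per-kb scale, Aldh1a2 made up 52.6 to 52.7% in KO hypoxia, 70.8 to 75.1% in WT hypoxia, 57.1 to 61.0% in KO normoxia and 73.4 to 76.4% in WT normoxia. On this scale Aldh1a2 was thus the largest component in every library, its share was smaller in each KO library than in each WT library, and Aldh1a3 supplied nearly all of the remainder. Before division by length, Aldh1a3 had the higher counts in the KO libraries (195 to 242, against 123 to 164 for Aldh1a2). The length took in all annotated exons, and which transcripts were expressed was not tested. Aldh1a1 made up 0.185 to 0.717% of the sum in the KO libraries and 0.257 to 0.478% in the WT libraries, with overlapping ranges.

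**Figure D1:**
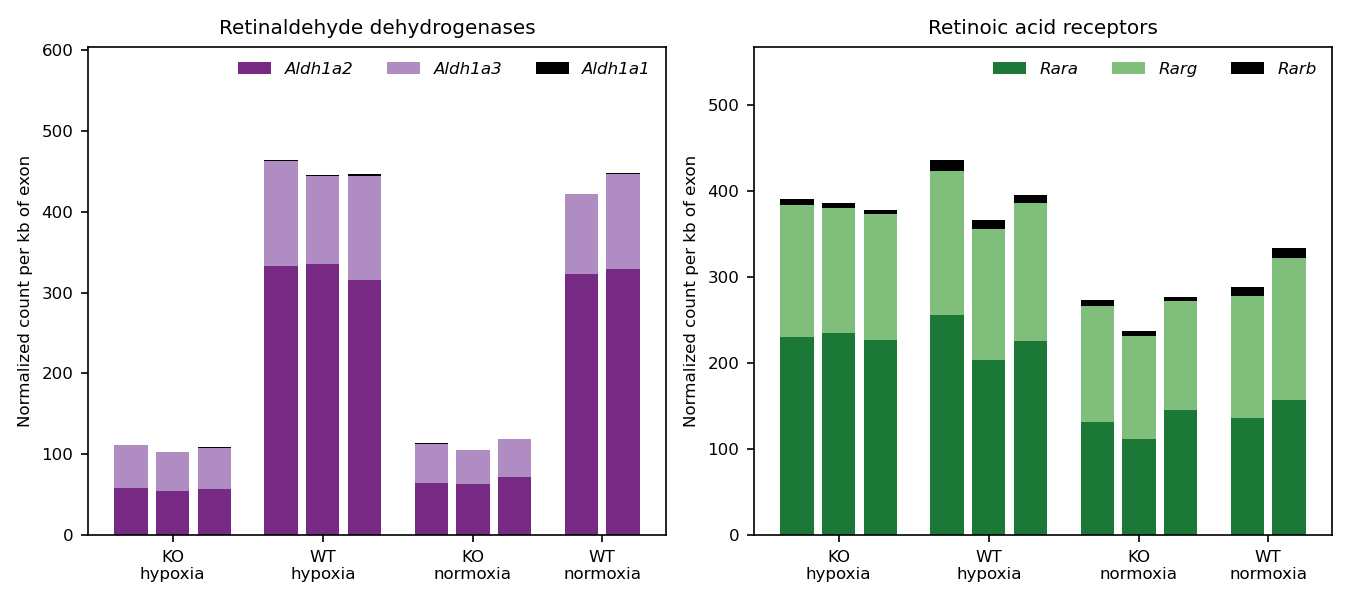
Normalized count per kb of exon (vertical axis) of the 3 retinaldehyde dehydrogenases (left) and the 3 retinoic acid receptors (right), 1 stacked bar per library, grouped as KO hypoxia, WT hypoxia, KO normoxia and WT normoxia. The dehydrogenase bars reach 103 to 119 in KO libraries and 422 to 465 in WT libraries, and the receptor bars reach 366 to 436 in hypoxia libraries and 237 to 333 in normoxia libraries.

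Dhrs3 (ENSMUSG00000066026, chromosome 4, 144892827 to 144928209), which reduces retinaldehyde back to retinol, had 75.7, 59.9 and 72.8 normalized counts in KO hypoxia, 332, 212 and 229 in WT hypoxia, 64.5, 66.2 and 56.4 in KO normoxia, and 183 and 210 in WT normoxia. Its KO libraries all lay below its WT libraries, and WT hypoxia replicate 1 stood above the rest. The log2 difference of KO from WT was -1.86 in hypoxia (SE 0.16, 3.62-fold lower) and -1.64 in normoxia (SE 0.18, 3.12-fold lower), next in size to Aldh1a2 among the tested members. Cyp26b1 (ENSMUSG00000063415, chromosome 6, 84571414 to 84593908), a cytochrome P450 that degrades retinoic acid, had 47.5, 68.1 and 60.5 in KO hypoxia, 137, 101 and 146 in WT hypoxia, 42.2, 23.7 and 29.3 in KO normoxia, and 52.5 and 58.2 in WT normoxia. Within each oxygen level its KO libraries were all below its WT libraries. Across oxygen levels the genotypes overlapped, because KO hypoxia libraries reached the level of WT normoxia libraries. The log2 difference of KO from WT was -1.11 in hypoxia (SE 0.22, 2.16-fold lower) and -0.82 in normoxia (SE 0.25, 1.77-fold lower).

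**Figure D2:**
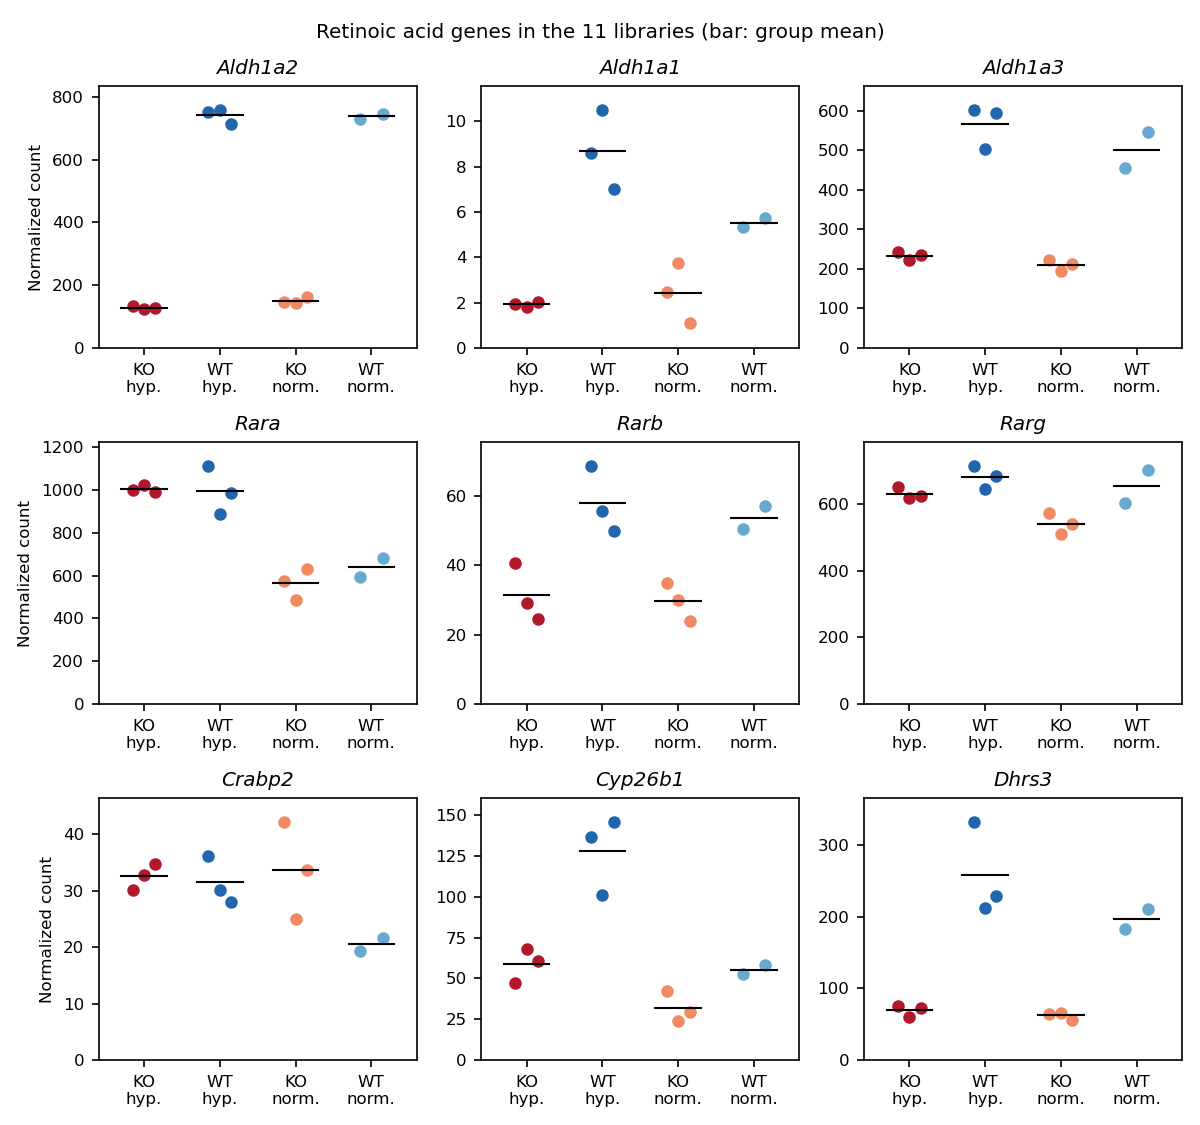
Normalized count (vertical axes, each from 0) of the 9 genes in the 11 libraries, with 1 point per library, a bar for each group mean, and the groups in the order KO hypoxia, WT hypoxia, KO normoxia, WT normoxia. Points of KO libraries lie below those of WT libraries for Aldh1a2, Aldh1a1, Aldh1a3, Rarb and Dhrs3, and points of hypoxia libraries lie above those of normoxia libraries for Rara.

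Rara (ENSMUSG00000037992, chromosome 11, 98927818 to 98974942), the broadly expressed retinoic acid receptor, had 1002, 1024 and 990 normalized counts in KO hypoxia, 1113, 886 and 984 in WT hypoxia, 573, 485 and 633 in KO normoxia, and 595 and 684 in WT normoxia. The genotypes overlapped, and every hypoxia library was above every normoxia library. The log2 difference of KO from WT was 0.02 in hypoxia (SE 0.10) and -0.19 in normoxia (SE 0.11). Rarg (ENSMUSG00000001288, chromosome 15, 102234938 to 102257517), a receptor known from skin and cartilage, had 652, 619 and 624 in KO hypoxia, 716, 647 and 686 in WT hypoxia, 573, 511 and 542 in KO normoxia, and 605 and 704 in WT normoxia. Its values stayed within 511 to 716 in all libraries. In normoxia every KO library was below both WT libraries, while in hypoxia, and across oxygen levels, KO and WT overlapped. The log2 difference of KO from WT was -0.11 in hypoxia (SE 0.07) and -0.27 in normoxia (SE 0.08).

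Rarb (ENSMUSG00000017491, chromosome 14, 16430839 to 16819156), the receptor whose promoter holds the DR5 element shown above, had low counts. They were 40.7, 29.1 and 24.6 in KO hypoxia, 68.6, 55.5 and 49.7 in WT hypoxia, 34.8, 30.0 and 23.9 in KO normoxia, and 50.3 and 57.1 in WT normoxia. All KO libraries were below all WT libraries, with KO hypoxia replicate 1 (40.7) and WT hypoxia replicate 3 (49.7) the closest. The log2 difference of KO from WT was -0.88 in hypoxia (SE 0.22, 1.84-fold lower) and -0.85 in normoxia (SE 0.25, 1.81-fold lower).

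Per kb of exon, the normalized counts of the 3 receptors summed to 378 to 390 in KO hypoxia, 366 to 436 in WT hypoxia, 237 to 277 in KO normoxia and 288 to 333 in WT normoxia. Rara supplied 58.8 to 60.9% of that per-kb sum in KO hypoxia, 55.6 to 58.5% in WT hypoxia, 46.9 to 52.4% in KO normoxia and 47.1 to 47.4% in WT normoxia, and Rarb supplied 1.24 to 3.32% in any library. The receptor sum and the share of Rara were higher in every hypoxia library than in every normoxia library, whereas the dehydrogenase sum divided the libraries by genotype. Crabp2 (ENSMUSG00000004885, chromosome 3, 87948666 to 87953376), the carrier of retinoic acid, had 30.1, 32.7 and 34.8 normalized counts in KO hypoxia, 36.2, 30.2 and 28.0 in WT hypoxia, 42.2, 25.0 and 33.6 in KO normoxia, and 19.3 and 21.7 in WT normoxia. Both WT normoxia libraries were lower than the other libraries, which overlapped. Its log2 difference of KO from WT was 0.05 in hypoxia (SE 0.22) and 0.66 in normoxia (SE 0.25), the only member with a difference above 0.1 in KO cells.

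Across the set, KO libraries lay entirely below WT libraries for 5 of the 9 members, and for 4 of the 8 that were tested, against 6.28% of all tested genes. In the fit over all genes (limma, adjusted p under 0.05 by the Benjamini-Hochberg method), 5 of 8 members were lower and 0 higher in KO hypoxia against WT hypoxia, where 5.61% of all genes were lower and 3.33% higher. In KO normoxia against WT normoxia, 4 of 8 were lower and 0 higher, where 5.66% of all genes were lower and 3.44% higher. By edgeR and DESeq2, 0 members were higher in either comparison, and at an unadjusted p under 0.05 limma had 0 higher in hypoxia and 1 in normoxia. Since the set was chosen on this contrast, these counts are given only as a description. The median log2 difference of the 8 members was -0.99 in hypoxia and -0.84 in normoxia, beside medians of 0.004 and 0.005 over all tested genes. Aldh1a2, Aldh1a3 and Dhrs3 were at least 2.37-fold lower in KO cells at both oxygen levels, while Rara and Rarg differed by no more than 0.27 on the log2 scale.

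The response to low oxygen asked whether 6 h at 1% oxygen changed the same genes. The stated reason for the set was the genotype difference of Aldh1a2, not this response. Earlier results of these data were known at that choice, however. Rara rose in both genotypes, 1.79-fold in KO cells and 1.55-fold in WT cells, and so did Cyp26b1, 1.85-fold in KO cells and 2.26-fold in WT cells. The members that rose were thus a receptor and an enzyme that degrades its ligand. For Rara the mean was 1005 ± 17.5 normalized counts in KO hypoxia and 564 ± 74.5 in KO normoxia (SD, n = 3 each). The log2 difference was 0.84 (SE 0.10, limma adjusted p = 0.000171), with no overlap between the groups, a separation upward that 11.9% of all tested genes had in KO cells and 15.4% in WT cells. In WT cells the mean of Rara was 995 ± 114 in hypoxia (SD, n = 3) and 640 ± 62.6 in normoxia (SD, n = 2). That log2 difference was 0.63 (SE 0.11, limma adjusted p = 0.00593), and it missed the threshold when WT normoxia replicate 1 was left out (limma adjusted p = 0.0974). Over 19 alternatives the adjusted p of Rara ranged from 4.95e-06 to 0.0974 in WT cells and from 3.02e-13 to 0.00141 in KO cells.

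Cyp26b1 averaged 58.7 ± 10.4 normalized counts in KO hypoxia and 31.7 ± 9.47 in KO normoxia (SD, n = 3 each), and every KO hypoxia library was above every KO normoxia library. The log2 difference was 0.89 (SE 0.22, limma adjusted p = 0.0374). In WT cells it averaged 128 ± 24.2 in hypoxia (SD, n = 3) and 55.3 ± 4.07 in normoxia (SD, n = 2), again without overlap, and the log2 difference was 1.18 (SE 0.25, limma adjusted p = 0.0216). Both calls of Cyp26b1 depended on single libraries. The call in KO cells was lost without KO normoxia replicate 2 or 3 or KO hypoxia replicate 2 or 3 (limma adjusted p = 0.0807 to 0.143), with no filter, with edgeR on recovered reads (adjusted p = 0.0594) and in a fit of the 2 groups alone. The call in WT cells was lost without WT normoxia replicate 1 or 2 or WT hypoxia replicate 1 or 3 (limma adjusted p = 0.0835 to 0.161). Over the 19 alternatives its adjusted p ranged from 0.0149 to 0.143 in KO cells and from 0.00159 to 0.161 in WT cells.

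In all, 2 of 8 members rose and 0 fell in KO hypoxia against KO normoxia, where 3.15% of all tested genes rose and 0.937% fell. In WT hypoxia against WT normoxia 2 of 8 rose and 0 fell, where 1.7% of all genes rose and 0.468% fell. At an unadjusted p under 0.05, limma had 3 members higher and 1 lower in KO cells and 3 higher and 0 lower in WT cells. Neither edgeR nor DESeq2 called a member lower (0 each in both genotypes), and DESeq2 called 2 higher in each genotype, edgeR 1 in KO cells and 2 in WT cells. The median log2 difference of the members was 0.15 in KO cells and 0.27 in WT cells, beside -0.005 and -0.003 over all tested genes.

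The other 6 tested members did not pass. Aldh1a2 had a log2 difference of -0.23 in KO cells (95% confidence interval -0.40 to -0.07, limma adjusted p = 0.128) and 0.01 in WT cells (-0.18 to 0.19, limma adjusted p = 0.982). The bounds farthest from 0 were -0.40 in KO cells and 0.19 in WT cells. Aldh1a3 had 0.15 in KO cells (limma adjusted p = 0.438) and 0.18 in WT cells (0.5). Rarg had 0.22 (0.115) in KO cells and 0.06 (0.802) in WT cells by the same test. Dhrs3 had 0.15 (limma adjusted p = 0.698) in KO cells and 0.36 (0.406) in WT cells. For the low-count genes the intervals were wide, from -0.41 to 0.55 in KO cells and -0.44 to 0.63 in WT cells for Rarb. For Crabp2 they ran from -0.50 to 0.46 in KO cells and from 0.06 to 1.13 in WT cells. The interval of Crabp2 in WT cells left out 0, with a log2 difference of 0.59 (limma unadjusted p = 0.0329, adjusted p = 0.309). In KO cells the intervals of Aldh1a2 (limma unadjusted p = 0.0101) and Rarg (0.07 to 0.38, limma unadjusted p = 0.00814) left out 0 as well. The hypoxia libraries were deeper than the normoxia libraries, as given below, and the part of depth in these differences was not tested.

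**Figure D3:**
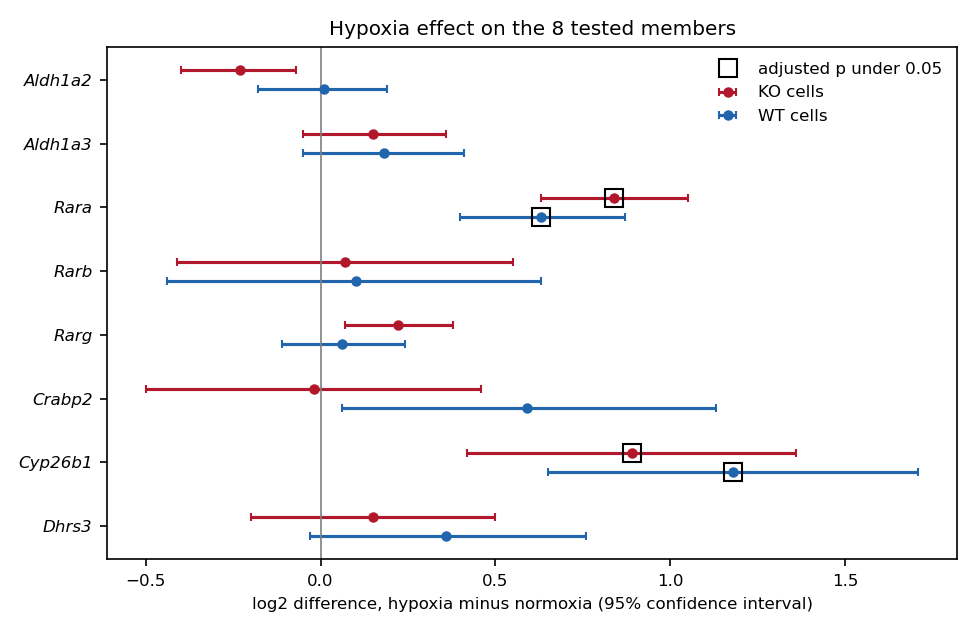
Log2 difference of hypoxia from normoxia (horizontal axis, with its 95% confidence interval) for the 8 tested members, in KO cells (upper point of each pair) and WT cells (lower point). Squares mark an adjusted p under 0.05, which Rara and Cyp26b1 reach in both genotypes, and the intervals of KO and WT cells overlap for every gene.

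Whether Bmal1 loss altered the oxygen response was tested as the hypoxia effect in KO cells minus that in WT cells. In limma 0 of 8 members were called in either direction, 0 had an unadjusted p under 0.05, and 1 of all tested genes (0.00679%) was called higher and 0 lower, with 784 genes (5.32%) at an unadjusted p under 0.05. The tests of edgeR and DESeq2 also called 0 members, with 1 and 0 members at an unadjusted p under 0.05. For Aldh1a2 the difference of effects was -0.24 (95% confidence interval -0.49 to 0.01, limma adjusted p = 0.917). Rara had 0.21 (-0.11 to 0.53, limma adjusted p = 0.917) and Cyp26b1 -0.29 (-1.0 to 0.42, limma adjusted p = 0.941). The others were -0.03 (-0.33 to 0.28) for Aldh1a3, 0.16 (-0.07 to 0.39) for Rarg, -0.02 (-0.74 to 0.69) for Rarb, -0.61 (-1.33 to 0.11) for Crabp2 and -0.22 (-0.74 to 0.31) for Dhrs3. No difference between the genotypes in the oxygen response was shown, and for Rara, Cyp26b1, Rarb, Crabp2 and Dhrs3 the intervals include differences of 0.5 or more on the log2 scale.

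Other genes of the pathway were taken from 3 lists. Of 27 listed genes of retinoid uptake, storage and metabolism, 22 were in the table and 13 were tested. In KO hypoxia against WT hypoxia 0 rose and 0 fell, with 1 higher and 0 lower at an unadjusted p under 0.05 in limma and 1 and 0 called by DESeq2, against 8.95% of all genes called in either direction. In KO normoxia against WT normoxia 1 rose and 1 fell of the 13, against 9.09% of all genes. Fabp5, a fatty acid carrier that can also deliver retinoic acid, had 1659, 1899 and 1659 in KO normoxia, against 1487 and 1341 in WT normoxia. It rose by 0.30 (limma adjusted p = 0.0346), a call lost in 4 of the alternatives (adjusted p = 0.0516 to 0.272). Rdh10 and Rdh11, of the retinol dehydrogenase family, were not called. Rdh10 had 75.7, 94.9 and 71.6 in KO normoxia and 107 and 124 in WT normoxia. Its log2 difference of KO from WT was -0.52 in normoxia (limma adjusted p = 0.0572) and -0.03 in hypoxia (0.955). Rdh11 had 460 to 598 over all KO libraries and 485 to 572 over all WT libraries. Of the other retinoic acid hydroxylases, Cyp26a1 had 0 to 2.91 normalized counts in a library and Cyp26c1 0 to 2.28, under the filter, so that Cyp26b1 was the tested member of its family.

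Of the 14 genes of RXR receptors and receptor cofactors, all tested, 1 rose and 0 fell in KO hypoxia against WT hypoxia, and 1 rose and 1 fell in KO normoxia against WT normoxia, beside the same 8.95% and 9.09% of all genes. For the 0 in hypoxia, edgeR and DESeq2 also gave 0, and limma had 1 lower at an unadjusted p under 0.05. The partners Rxra and Rxrb, with which the retinoic acid receptors bind DNA, were not called. Rxra had 887 to 1006 normalized counts over the KO libraries and 874 to 1066 over the WT libraries, and Rxrb 507 to 591 over the KO libraries and 467 to 577 over the WT libraries. In normoxia alone, Rxra had 995, 887 and 919 in KO cells and 1066 and 1040 in WT cells. Its log2 difference of KO from WT was -0.17 there (limma unadjusted p = 0.0242, adjusted p = 0.14) and 0.06 in hypoxia (adjusted p = 0.66). Ncoa1, a coactivator of nuclear receptors, averaged 1237 ± 43.8 in KO hypoxia and 1018 ± 64.5 in WT hypoxia (log2 difference 0.28, SE 0.06, limma adjusted p = 0.00601). Med1, a Mediator subunit that contacts nuclear receptors, averaged 2342 ± 81.0 in KO normoxia and 1916 ± 50.7 in WT normoxia (0.29, SE 0.06, limma adjusted p = 0.0111). The call of Med1 was lost without WT normoxia replicate 2 (limma adjusted p = 0.104, in a range of 0.00155 to 0.104 over the alternatives).

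Genes known to respond to retinoic acid in other cells, among them Hox, Meis and Nr2f genes, formed the last list. Of its 22 genes, 20 were in the table and 16 were tested. In each genotype comparison 0 rose and 1 fell by limma, edgeR and DESeq2 alike, beside 8.95% of all genes called in hypoxia and 9.09% in normoxia. At an unadjusted p under 0.05, limma had 0 higher and 3 lower in hypoxia and 0 higher and 2 lower in normoxia. The log2 differences ran from -1.31 to 0.75 in hypoxia (median -0.03) and from -1.14 to 1.37 in normoxia (median -0.03). The gene that fell in hypoxia was Nr2f1 (COUP-TF1), an orphan nuclear receptor, which had 27.2, 21.8 and 22.5 normalized counts in KO hypoxia, against 76.2, 35.8 and 79.3 in WT hypoxia (-1.31, SE 0.27, limma adjusted p = 0.00611). In normoxia it had 31.0, 26.2 and 27.1 in KO cells and 49.3 and 57.1 in WT cells, and was not called (-0.89, limma adjusted p = 0.0812). The gene that fell in normoxia was Nrip1, a corepressor induced by retinoic acid, with 701, 743 and 664 in KO normoxia and 899 and 935 in WT normoxia (-0.38, SE 0.09, limma adjusted p = 0.0175). Its call was lost without WT normoxia replicate 1 or 2 (0.0697 and 0.129), and in hypoxia it had -0.25 (limma adjusted p = 0.079).

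Under hypoxia, 1 gene of the 3 lists, with 13, 14 and 16 tested genes, passed, and it did so in KO cells. There 3.15% of all tested genes rose and 0.937% fell. Zfp703, a transcriptional corepressor, had 148, 138 and 141 normalized counts in KO hypoxia, against 78.2, 63.7 and 84.7 in KO normoxia, and rose by 0.92 (SE 0.15, limma adjusted p = 0.00357). In WT cells it had 116, 109 and 162 in hypoxia, against 83.5 and 84.5 in normoxia (0.59, limma adjusted p = 0.116). The difference of effects, KO minus WT, was 0.33 (SE 0.23, limma adjusted p = 0.917), so a difference between the genotypes was not shown. In WT hypoxia against WT normoxia 0 genes of the 3 lists were called by limma, edgeR or DESeq2. Of all tested genes, 1.7% rose and 0.468% fell there in limma. At an unadjusted p under 0.05, limma had 1 higher and 1 lower of the metabolism genes, 0 and 2 of the RXR and cofactor genes and 1 and 0 of the responsive genes.

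**Figure D4:**
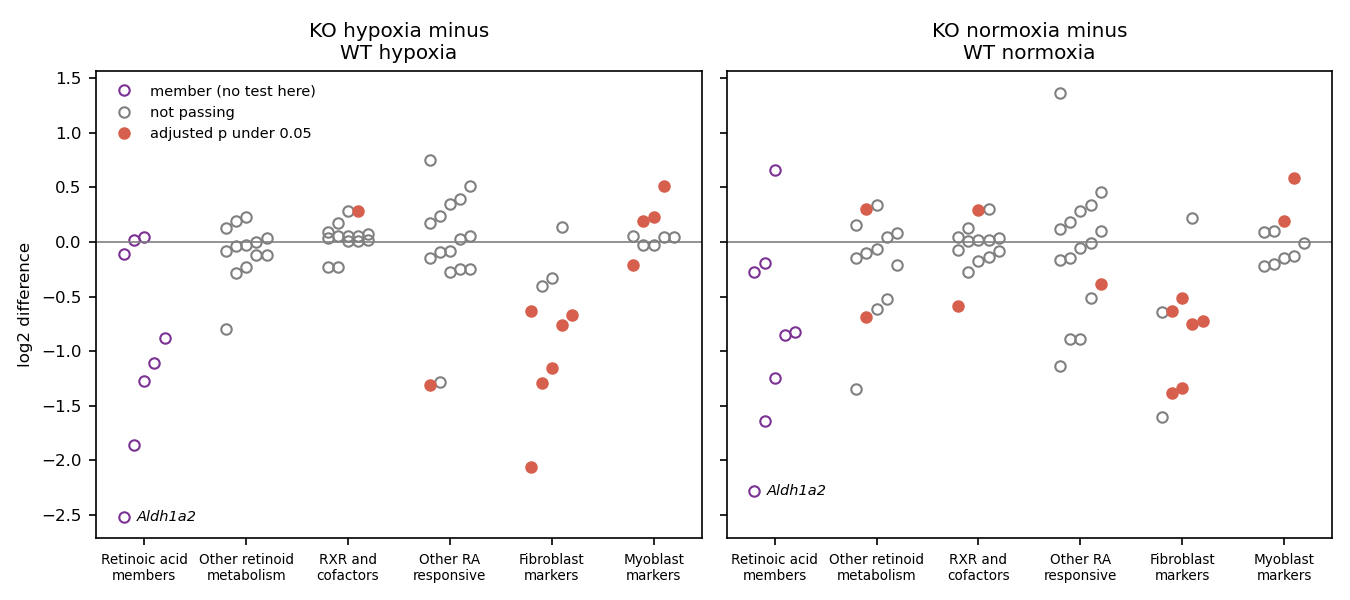
Log2 difference of KO from WT (vertical axis) in hypoxia (left) and normoxia (right), 1 point per tested gene, for the members, the 3 other retinoid lists and 2 lists of cell type markers, with filled points for an adjusted p under 0.05. Aldh1a2 is the lowest point of the panels at -2.52 in hypoxia and -2.28 in normoxia, members are drawn open whatever their value, and most fibroblast markers lie below 0.

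The level of Aldh1a2 was followed most closely, over the 11 libraries and among 10702 other genes with a mean of at least 50 normalized counts, by 5 genes with a Pearson r on the log2 scale of 0.9928 to 0.9978. These coefficients mainly restate the split between 6 KO and 5 WT libraries and are given as a description. Cxcl14, a chemokine, had r = 0.9978, with means of 31.6 in KO hypoxia, 207 in WT hypoxia, 34.8 in KO normoxia and 205 in WT normoxia. Lrrc32 (0.9959) binds latent TGF-beta, Nr1d2 (0.9958) is the clock repressor REV-ERB beta, S1pr3 (0.9938) is a sphingosine 1-phosphate receptor and Sparc (0.9928) is a collagen-binding matrix protein. The most opposite were Cry1 (-0.9964), a clock repressor, Tfpi2 (-0.9911), a protease inhibitor, and Plekha7 (-0.9880), a junction protein. Cry1 averaged 929 normalized counts in KO hypoxia, 278 in WT hypoxia, 819 in KO normoxia and 275 in WT normoxia. When deviations from the group means were compared, r was 0.51 for Cxcl14, 0.44 for Lrrc32, -0.11 for Nr1d2, 0.43 for S1pr3 and 0.00 for Sparc, and 0.10 for Cry1, -0.80 for Tfpi2 and 0.08 for Plekha7. Of the members with a mean of at least 50, Aldh1a3 had r = 0.972 (rank 77), Dhrs3 0.963 (rank 114), Cyp26b1 0.655, Rarg 0.632 and Rara 0.134.

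Many, but not all, markers of connective tissue cells moved with genotype in the same direction as Aldh1a2, Aldh1a3 and Dhrs3. Of 11 markers of fibro-adipogenic progenitors and fibroblasts, 9 were tested, and 6 were lower and 0 higher in KO cells at each oxygen level. The other 3 were not called, among them Tcf7l2. Its log2 difference of KO from WT was 0.14 in hypoxia and 0.22 in normoxia (limma adjusted p = 0.622 and 0.385). Of all tested genes, 5.61% were lower and 3.33% higher in hypoxia, and 5.66% lower and 3.44% higher in normoxia. The genotype counts of the other marker lists stand beside the same shares. Pdgfra, the receptor that defines these progenitors, had 300, 292 and 326 normalized counts in KO hypoxia, 717, 745 and 786 in WT hypoxia, 269, 251 and 277 in KO normoxia, and 700 and 685 in WT normoxia (log2 difference -1.29 in hypoxia and -1.38 in normoxia, limma adjusted p = 5.62e-08 and 1.25e-07). The list summed to 2116 to 2316 in KO hypoxia, 3973 to 4352 in WT hypoxia, 1895 to 2065 in KO normoxia and 4053 to 4208 in WT normoxia. Col15a1 was the largest part, averaging 979 in KO hypoxia, 2165 in WT hypoxia, 916 in KO normoxia and 2319 in WT normoxia. The listed genes Pi16 and Dpt were at 0 to 4.22 in all libraries, and Lum at 0.908 to 8.73 in KO libraries and 14.8 to 23.6 in WT libraries. Of 7 markers of pericytes and smooth muscle, 4 were lower and 0 higher in KO cells at each oxygen level, and they summed to 27354 to 27760 in KO hypoxia, 32321 to 33550 in WT hypoxia, 30322 to 30830 in KO normoxia and 36557 to 37401 in WT normoxia. Most of that sum was Acta2, smooth muscle actin, which was lower in KO cells by 0.18 in hypoxia and 0.20 in normoxia on the log2 scale. The receptor Pdgfrb was 2.31-fold lower in hypoxia and 2.63-fold lower in normoxia (limma adjusted p = 2.91e-07 and 3.29e-07), and the proteoglycan Cspg4 2.1-fold and 2.66-fold lower (3.96e-05 and 9.64e-06). At each oxygen level 3 of the 7 markers were not called. Among them Rgs5 had higher means in KO than in WT cells, 567 against 523 in hypoxia and 525 against 444 in normoxia. The 9 myoblast markers summed to 59247 to 60093 in KO hypoxia, 54730 to 57119 in WT hypoxia, 59050 to 60776 in KO normoxia and 57564 to 57899 in WT normoxia. Chrna1 was the largest part, averaging 22656 in KO hypoxia, 19852 in WT hypoxia, 22539 in KO normoxia and 19698 in WT normoxia. Of the 9 markers, 3 were higher and 1 lower in KO hypoxia against WT hypoxia, and 2 higher and 0 lower in KO normoxia against WT normoxia. Myf5, a myogenic transcription factor, was higher in KO cells at both oxygen levels (log2 difference 0.51 in hypoxia and 0.59 in normoxia, limma adjusted p = 0.000318 and 0.000306), and Myod1 had 7983 to 8977 in the KO libraries and 7793 to 9502 in the WT libraries. Endothelial markers summed to at most 63.0, leukocyte markers to at most 50.3 and adipocyte markers to at most 3.07 in a library. Schwann cell markers summed to 607 to 768 and tenocyte markers to 405 to 488. Of 3 tested Schwann cell markers, 1 was higher and 1 lower in KO cells at each oxygen level. Of 3 tested tenocyte markers, 0 were higher and 0 lower. Fewer cells of a type and less RNA per cell cannot be told apart in bulk samples, and the part of these markers in the genotype differences of the members was not tested. Between oxygen levels the fibroblast sums differed less than between genotypes. Of the fibroblast list's 9 tested genes, 1 (Cd34) rose under hypoxia in KO cells and 0 in WT cells. Of the 7 pericyte and smooth muscle markers, 0 rose and 1 fell in each genotype. Of the 9 myoblast markers, 0 rose, and 1 fell in KO cells and 0 in WT cells. Of all tested genes, 3.15% rose and 0.937% fell in KO cells, and 1.7% rose and 0.468% fell in WT cells. The part of these markers in the hypoxia effects of the members was not tested.

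Recovered reads numbered 23027613 to 33613328 in the hypoxia libraries and 18707697 to 21451760 in the normoxia libraries, so every hypoxia library was the deeper. A tested member had 18 to 1266 reads in a library. Arntl had 128, 134 and 128 normalized counts in KO hypoxia, 325, 328 and 322 in WT hypoxia, 109, 117 and 98.8 in KO normoxia, and 264 and 267 in WT normoxia, lower in all KO libraries but not at 0. Each library was thus on the side its genotype label gives, although reads remained on the gene. Over all tested genes the first principal component (27.5% of the variance) divided the genotypes and the second (14.3%) the oxygen levels.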

How the data were processed

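Per the labels' protocols, 1 µg of total RNA per library was made into stranded total RNA libraries. The submitters' processing notes name bcl2fastq, STAR, Picard, HTSeq, RSEM, DESeq2 and mm10, without roles. The values the authors deposited are a signal, read counts per gene divided by 1 size factor per library. Undoing that factor turned 100% of values into whole reads (tolerance 0.01 read), and 0 columns were left unused. Symbols matched 21819 of 22104 identifiers, and positions are from GENCODE M21 (GRCm38).

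Values were taken as log2(normalized count + 1). Genes with at least 10 in at least 2 libraries (14729) were fitted with limma 3.58.1 (R 4.3.3) with a variance trend, 4 groups and all 11 libraries, two-sided, with Benjamini-Hochberg adjustment and a threshold of 0.05. Rose and fell are used for genes past it. This scale understates changes of low genes. Counting by gene can misassign reads that paralogs or overlapping genes share. The fit of the hypoxia effects and of their difference was run on simulated data, with shifts only in genes with a mean of at least 50. The genotype comparisons and genes with lower means were not covered, and the outcome is not reported here. Alternatives were edgeR 4.0.16 and DESeq2 1.42.0 on recovered reads, TMM scaling, pseudocounts of 0.5 and 5, a filter of 50 or none, only the compared groups, and each library left out.

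The members and lists were chosen with earlier results of these data known. Named were all members, Arntl, up to 6 called genes of each retinoid list (some called genes are not reported here), and the 5 genes most like and 3 least like Aldh1a2. Pdgfra, Col15a1, Lum, Pi16, Dpt, Cd34, Myod1, Myf5, Chrna1, Acta2, Pdgfrb, Cspg4, Rdh10, Rdh11, Cyp26a1, Cyp26c1, Rxra and Rxrb were added after their values were seen. So were Tcf7l2 and Rgs5.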

Additional observations from a re-analysis of the deposited data

How the results depend on the processing

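No paired analysis was possible because no label ties a library of one group to a library of another. The number of members that rose in WT hypoxia was 2 and ranged from 0 to 2 when 1 library was left out. In KO hypoxia it was 2 and ranged from 1 to 2 when 1 library was left out, and it was 1 with no filter, 1 with edgeR and 1 with only the compared groups in the fit. The call lost there was that of Cyp26b1, and the cause was not tested. Members lower in KO cells numbered 4 to 6 over the alternatives in hypoxia and 3 to 5 in normoxia, where Rarb lost its place in most of them. Some hypoxia values that were not called changed sign when 1 library was left out: Aldh1a2 in WT cells ranged from -0.01 to 0.04, Rarb from -0.03 to 0.20 in WT cells and from -0.12 to 0.23 in KO cells, Rarg in WT cells from -0.05 to 0.17 and Crabp2 in KO cells from -0.21 to 0.16. The difference of effects ranged from -0.16 to 0.10 for Aldh1a3 and from -0.22 to 0.13 for Rarb, and the cause was not tested.

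Counts over all genes moved by more than 1.5 times. In KO normoxia against WT normoxia, 506 genes were higher (229 to 530 over the alternatives) and 833 lower (439 to 887). In KO hypoxia against WT hypoxia, 491 were higher (318 to 519). KO hypoxia against KO normoxia gave 464 higher (303 to 493) and 138 lower (64 to 182), WT hypoxia against WT normoxia 251 higher (143 to 293) and 69 lower (18 to 99), and the difference of effects 1 higher (0 to 4) and 0 lower (0 to 1). With TMM scaling and 1 added to CPM, which weighs more on low counts, the difference of KO from WT for Aldh1a2 was -2.35 in hypoxia and -2.14 in normoxia, and for Rarb -0.58 and -0.55. Aldh1a1 had 1 to 15 reads in a library and was left untested, and Rarb, Crabp2 and Cyp26b1 had the largest SEs of the tested members (0.22 in the hypoxia effect of KO cells).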
